A study of Homo sapiens with 12 samples.

Results

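The nuclear genes of respiratory complexes I to IV were followed by RNA sequencing in a pair of human cell lines, the colorectal cancer line HT-29 and the mast cell line LAD2. The genes were taken by symbol from a list of 59 subunit genes, and each of the 59 was found among the 58721 genes of the deposited count table. They comprised 36 genes of complex I, 4 of complex II, 9 of complex III and 10 of complex IV. By role, 12 were grouped as catalytic or redox core, which includes the conserved core subunit NDUFS3 of complex I and the membrane anchors of complex II, and 47 encode supernumerary or accessory subunits.

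The study compared 4 groups: HT-29 cells alone, HT-29 cells from coculture with LAD2, LAD2 cells alone, and LAD2 cells from coculture with HT-29. Coculture was direct. A label field named batch holds 12 h in every group, and this was read as the coculture time. Per the labels, HT-29 was kept in McCoy 5A medium with serum and LAD2 in SP34 medium with its nutrients, and RNA came from HT-29 with a mini column kit and from LAD2 with a micro column kit. The medium of the coculture and the way the lines were separated are not stated in the labels. Line, culture medium and kit therefore cannot be told apart between HT-29 and LAD2. The labels name no transgene, deletion or drug in any group, and each group is a single established line.

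Each group had 3 columns in the table, but those labelled LAD2 coculture were identical to each other in all genes and were counted as 1 library. This left 3, 3, 3 and 1 libraries. Total counts ran from 17.2 to 34.1 M (M, 1e6 counts) in HT-29 and from 20.5 to 25.4 M in LAD2, and levels are given as counts per 1e6 counts (CPM). The 12 mast cell markers summed to 19380 to 19655 CPM in LAD2 alone and to 33.1 to 33.6 CPM in HT-29 alone, where 9 of them, among them KIT, CPA3 and TPSAB1, were at 0 counts. The 12 epithelial markers summed to 12805 to 13416 CPM in HT-29 grown alone and to 226 to 250 CPM in LAD2 alone, where CDH1, CDX1, CDX2 and VIL1 were at 0 counts. The coculture libraries held RNA of the other line. From genes above 50 CPM in one line and under 0.5 CPM in the other, the share of LAD2 RNA in HT-29 coculture was 1.04, 1.09 and 1.19%, and the share of HT-29 RNA in the LAD2 coculture library was 5.26%. Mast cell markers summed to 250.6 to 273 CPM in HT-29 coculture and epithelial markers to 1084 CPM in LAD2 coculture.

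The respiratory chain sits in the inner mitochondrial membrane and passes electrons from food to oxygen. Complex I takes electrons from NADH and complex II from succinate, and both hand them to ubiquinone. Complex III passes them on to cytochrome c, and complex IV passes them to oxygen. Complexes I, III and IV pump protons as they do so, and ATP synthase uses the resulting gradient. All subunits of complex II come from nuclear genes, whereas complexes I, III and IV combine nuclear subunits with a few encoded in mitochondrial DNA. Mast cells and colon cancer cells both use glycolysis beside respiration.

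Nuclear respiratory genes are known for short promoters with sites of NRF1, of the ETS factor GABPA (also called NRF2) and of YY1. RefSeq promoter windows on GRCh38.p14, from 250 bases before to 50 bases after the start of transcription, were found for 51 of the 59 genes and for 27305 genes in all. Motifs were searched on both strands. The core of the NRF1 site, GCATGCGC, was present in 10 of the 51 windows (19.6%) and in 3.68% of all windows. The ETS motif CCGGAAG was present in 15 (29.4%) against 12.2%, and the YY1 motif AAGATGGC in 9 (17.6%) against 3.52%. The SP1 motif GGGGCGGGG was present in 8 (15.7%) against 18.5%. At least 1 of NRF1 core, ETS and YY1 was found in 27 of 51 windows (52.9%) and in 17.6% of all windows. A match is a run of letters in the window and not a measured binding site.

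Windows of 4 genes are shown, chosen because together they hold each of the 3 motif kinds. NDUFB9, COX5A and NDUFA12, on which results below also turn, are not among the 27 genes with a match. SDHB was lower in LAD2. COX6A1 was called higher in LAD2 coculture, but not once HT-29 RNA was subtracted. NDUFS7 was higher in LAD2, unlike most subunit genes. UQCRH was the complex III gene with the lowest adjusted p in LAD2 coculture before that subtraction, and it was not called after it. Capitals mark matches of the NRF1 core, ETS and YY1 motifs or their reverse complements. The windows are SDHB at chr1:17053983-17054282 on the minus strand, COX6A1 at chr12:120437863-120438162, NDUFS7 at chr19:1383657-1383956 and UQCRH at chr1:46303448-46303747, the latter 3 on the plus strand.
SDHB: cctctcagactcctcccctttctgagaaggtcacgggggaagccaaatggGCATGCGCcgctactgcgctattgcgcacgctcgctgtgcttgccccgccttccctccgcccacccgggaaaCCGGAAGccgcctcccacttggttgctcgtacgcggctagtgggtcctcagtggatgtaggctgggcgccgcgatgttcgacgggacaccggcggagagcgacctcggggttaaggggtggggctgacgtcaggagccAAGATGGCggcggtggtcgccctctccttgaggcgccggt
COX6A1: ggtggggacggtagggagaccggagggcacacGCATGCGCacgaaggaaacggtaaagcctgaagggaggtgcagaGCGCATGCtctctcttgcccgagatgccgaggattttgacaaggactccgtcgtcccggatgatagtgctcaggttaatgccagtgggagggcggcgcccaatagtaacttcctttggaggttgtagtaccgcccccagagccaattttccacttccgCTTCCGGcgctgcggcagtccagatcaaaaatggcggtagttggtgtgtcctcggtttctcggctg
NDUFS7: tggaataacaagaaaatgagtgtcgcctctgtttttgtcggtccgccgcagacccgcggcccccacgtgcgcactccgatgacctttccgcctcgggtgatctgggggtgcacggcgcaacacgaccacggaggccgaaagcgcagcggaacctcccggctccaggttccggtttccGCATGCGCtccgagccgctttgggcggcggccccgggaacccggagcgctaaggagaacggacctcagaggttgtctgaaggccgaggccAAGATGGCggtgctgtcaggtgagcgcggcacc
UQCRH: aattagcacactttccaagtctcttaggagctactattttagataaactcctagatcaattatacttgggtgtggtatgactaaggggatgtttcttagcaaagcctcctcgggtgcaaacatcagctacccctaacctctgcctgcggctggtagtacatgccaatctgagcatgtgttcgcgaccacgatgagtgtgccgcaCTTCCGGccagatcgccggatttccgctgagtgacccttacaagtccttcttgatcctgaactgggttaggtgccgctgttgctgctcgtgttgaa
In SDHB the NRF1 core began at base -200, the ETS motif at -128 and the YY1 motif at 11 relative to the start. COX6A1 held the NRF1 core at -218 and its reverse complement at -174, with the reverse complement of the ETS motif at -16. NDUFS7 held the NRF1 core at -73 and the YY1 motif at 18. UQCRH held only the reverse complement of the ETS motif, at -46.

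The first comparison set the lines grown alone side by side. The 59 genes together took a smaller share of the counts in LAD2 than in HT-29. Their summed level was 5599, 5711 and 5643 CPM in HT-29 grown alone and 3804, 3753 and 3956 CPM in LAD2 alone, a ratio of 0.679 between the means. The libraries of the lines did not overlap. In bulk RNA, a lower level per cell and a smaller share of expressing cells cannot be told apart. Of 57 genes tested, 37 were lower and 12 higher in LAD2 alone, and 8 did not pass the test (edgeR quasi-likelihood test over all genes, Benjamini-Hochberg adjusted p under 0.05). This has to be read against the whole transcriptome, in which 44.9% of 15830 genes were lower and 47.5% higher in LAD2. The median log2 difference of the 57 genes was -0.57, against 0.07 for all genes. A difference of 2-fold or more was measured in 12 genes, which were all lower in LAD2.

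**Figure D1:**
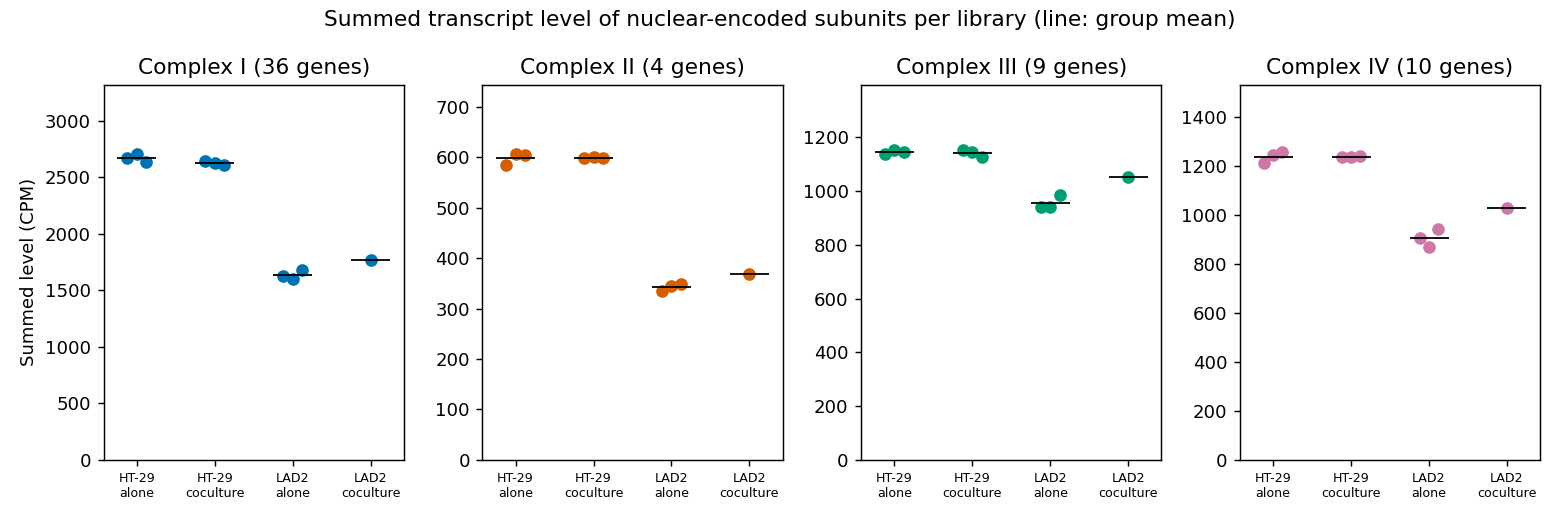
Summed level in CPM of the nuclear-encoded subunit genes of each complex in every library; points are libraries and the line is the group mean, with 1 library for LAD2 coculture. LAD2 lies below HT-29 in all 4 complexes, and the LAD2 coculture point lies above the 3 LAD2 alone points in each.

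Complex I, the NADH dehydrogenase, summed to 2670 ± 35.8 CPM (SD, n = 3) in HT-29 grown alone and 1634 ± 39.3 CPM (SD, n = 3) in LAD2 alone. Of its 34 tested genes, 22 were lower and 8 higher in LAD2, shares of 64.7% and 23.5% beside 44.9% and 47.5% of all genes. NDUFB9, an accessory subunit of the membrane arm (chromosome 8, 124539101 to 124580648, plus strand, GRCh38, GENCODE release 29), differed most. Its level was 438, 432 and 415 CPM in HT-29 grown alone and 50.8, 54.4 and 54.4 CPM in LAD2 alone, which is 8.05-fold lower in LAD2 (log2 difference -3.02, SE 0.0428, adjusted p = 1.75e-42, edgeR). No HT-29 library came near a LAD2 library. The opposite-strand gene TATDN1 shares 26.0% of the principal transcript of NDUFB9. Its own level was 124 CPM in HT-29 grown alone and 13.0 CPM in LAD2 alone, and since the strand setting of the counting is not given, its part in the NDUFB9 value was not tested.

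NDUFAB1, the acyl carrier protein that is also a subunit of complex I, had 116, 122 and 115 CPM in HT-29 grown alone and 35.0, 34.5 and 37.9 CPM in LAD2 alone (log2 difference -1.73, adjusted p = 6.69e-32, edgeR). NDUFS5, an accessory subunit on the intermembrane side, had 152, 162 and 160.2 CPM against 62.3, 58.8 and 62.0 CPM (log2 difference -1.39). Both genes were clearly separated between the lines, and so were the next 2. NDUFS8, which carries iron-sulfur clusters near the ubiquinone site, had 91.9, 94.9 and 92.4 CPM against 43.1, 38.9 and 40.7 CPM (log2 difference -1.20). NDUFC1, a small accessory subunit, had 47.9, 43.5 and 43.9 CPM against 18.5, 21.3 and 21.7 CPM (log2 difference -1.14). Other core subunits were lower by less, with log2 differences of -0.85 for NDUFV1, which binds NADH and FMN, of -0.66 for NDUFS1 and of -0.34 for NDUFS3.

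Complex I also held the genes with the strongest differences in the other direction. NDUFV3, an accessory subunit of the NADH-binding module, had 38.8, 37.4 and 40.6 CPM in LAD2 alone and 21.2, 22.6 and 20.1 CPM in HT-29 alone (log2 difference 0.85, adjusted p = 4.61e-17, edgeR). NDUFA12, an accessory subunit of the matrix arm, had 93.2, 92.3 and 99.6 CPM in LAD2 and 55, 60.9 and 62.5 CPM in HT-29 (log2 difference 0.66). NDUFS7, the core subunit with the last iron-sulfur cluster before ubiquinone, had 57.6, 54.1 and 55.2 CPM against 39.6, 37.1 and 37.6 CPM (log2 difference 0.54). All 3 genes were higher in each LAD2 library than in any HT-29 library. NDUFS7 and NDUFS8, neighbours in the electron path, thus differed between the lines in opposite directions. NDUFB1 (log2 difference 0.49) and NDUFA6 (0.42) were also higher in LAD2. NDUFA11 had 8.78, 7.80 and 7.08 CPM in LAD2 and 5.11, 4.80 and 4.35 CPM in HT-29 (log2 difference 0.71), a low level that is taken up again with the overlapping genes.

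Complex II, succinate dehydrogenase, summed to 599 ± 11.6 CPM (SD, n = 3) in HT-29 grown alone and 342 ± 7.21 CPM (SD, n = 3) in LAD2 alone. All 4 of its genes were lower in LAD2, beside 44.9% of all genes. SDHA, the flavoprotein that oxidises succinate, had 288, 304 and 300.2 CPM in HT-29 and 139, 140.3 and 142 CPM in LAD2 (log2 difference -1.09, SE 0.0373, adjusted p = 3.88e-28, edgeR). SDHB, the iron-sulfur subunit, had 107, 108 and 110.0 CPM against 61.4, 61.9 and 65.6 CPM (log2 difference -0.79). The membrane anchors were lower by less than SDHA. SDHD had 91.4, 93.6 and 96.2 CPM against 56.6, 59.5 and 59.2 CPM (log2 difference -0.69). SDHC had 98.1, 101 and 98.3 CPM against 76.9, 82.2 and 81.4 CPM (log2 difference -0.32, adjusted p = 2.39e-09, edgeR). The 4 subunits occur in equal number in the complex, while their log2 differences between the lines ran from -1.09 to -0.32.

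Complex III, the cytochrome bc1 complex, summed to 1145 ± 7.05 CPM (SD, n = 3) in HT-29 grown alone and 955 ± 26.9 CPM (SD, n = 3) in LAD2 alone, the smallest relative gap of the 4 complexes. Of its 9 genes 4 were lower and 3 higher in LAD2, shares of 44.4% and 33.3% beside 44.9% and 47.5% of all genes. UQCRH, the hinge protein that meets cytochrome c1, had 185, 193 and 189 CPM in HT-29 and 82.1, 82.5 and 86.3 CPM in LAD2 (log2 difference -1.19, adjusted p = 1.55e-28, edgeR). Cytochrome c1 itself, encoded by CYC1, had a log2 difference of -1.06, and the small subunits UQCRQ and UQCR10 had -1.01 and -0.98. The higher genes were led by UQCRC2, a large core protein on the matrix side, with 287, 294 and 297 CPM in LAD2 against 198, 204 and 206 CPM in HT-29 (log2 difference 0.52). UQCRFS1, the Rieske iron-sulfur protein, had 113, 107 and 113 CPM in LAD2 against 94.0, 92.2 and 90.4 CPM in HT-29 (log2 difference 0.26), and UQCRB had a log2 difference of 0.23. UQCRC1, the partner of UQCRC2, had 117, 119 and 119 CPM in HT-29 and 120.1, 115 and 119.5 CPM in LAD2, so the groups overlapped (log2 difference -0.01, adjusted p = 0.714, edgeR).

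Complex IV, cytochrome c oxidase, summed to 1238 ± 24.2 CPM (SD, n = 3) in HT-29 grown alone and 906 ± 37.3 CPM (SD, n = 3) in LAD2 alone. Of 10 genes, 7 were lower and COX6C was higher in LAD2, shares of 70% and 10% beside 44.9% and 47.5% of all genes. COX7B, a small membrane subunit, had 118, 120.0 and 121 CPM in HT-29 and 47.6, 50.3 and 50.4 CPM in LAD2 (log2 difference -1.29, adjusted p = 1.29e-28, edgeR). COX5A, a matrix-side subunit, had 189, 186 and 187 CPM against 76.5, 78.4 and 81.5 CPM (log2 difference -1.26). These 2 genes stood apart from COX4I1, the largest nuclear subunit, which had 219.7, 229 and 229 CPM against 197, 191 and 209 CPM (log2 difference -0.19). COX5B and COX7C did not pass the test, with log2 differences of 0.06 and 0.03.

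**Figure D2:**
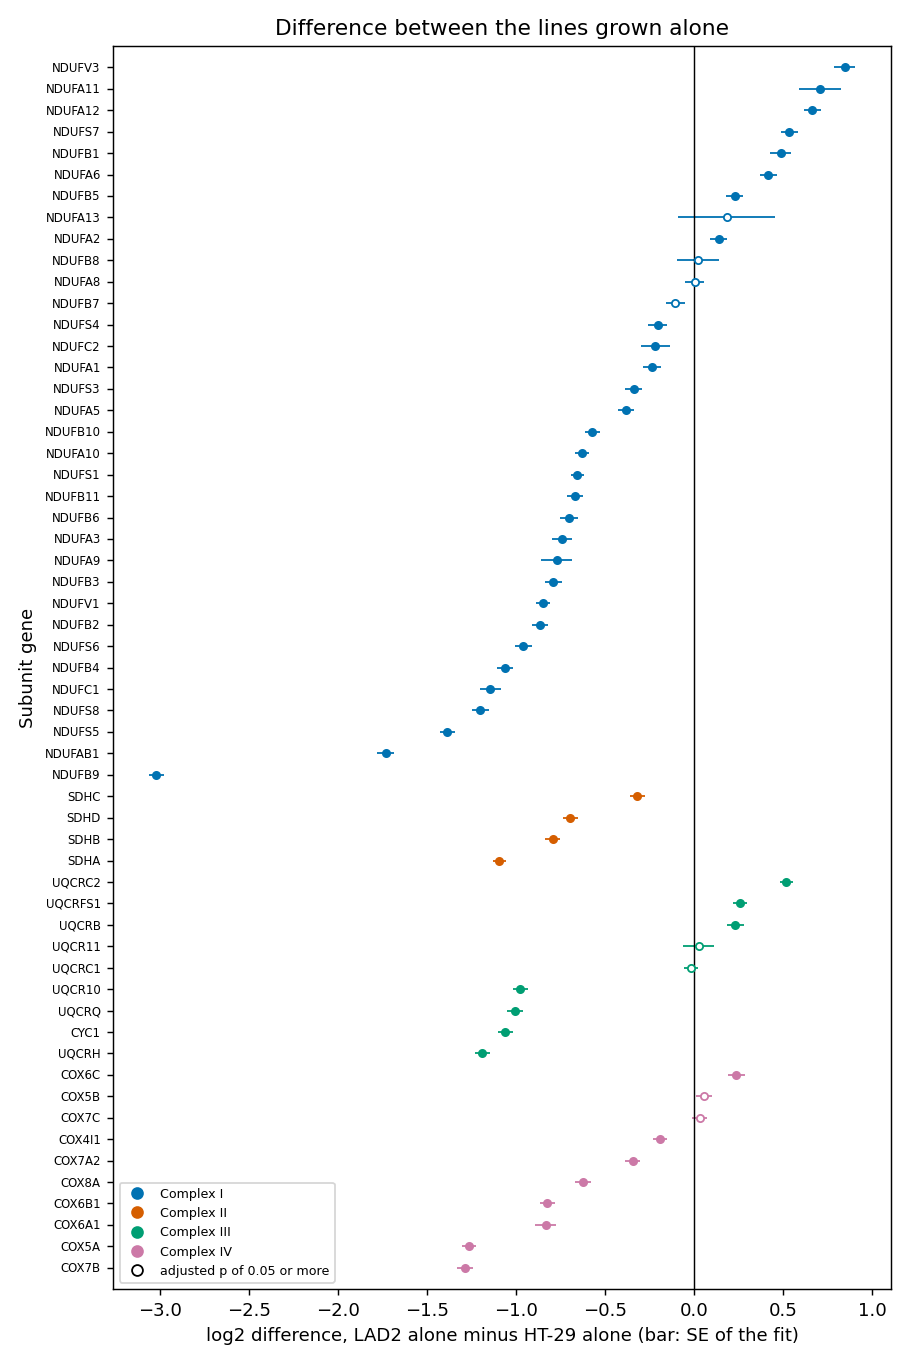
Log2 difference between LAD2 alone and HT-29 alone for the 57 tested subunit genes, ordered within each complex; bars are standard errors of the fit and open points did not pass the test. NDUFB9 stands farthest from 0 at -3.02, complex II lies wholly below 0, and complex III has genes on both sides of it.

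Paralogs of complex IV subunits were read from a list of other structural genes. COX7A1, the form known from heart and skeletal muscle, had 0 counts in the 3 HT-29 alone libraries and 14.7, 15.6 and 16.1 CPM in LAD2 alone. Against a floor of 3 counts over the HT-29 group, its level was at least 366-fold higher in LAD2. The widely expressed form COX7A2 had 98.5, 100.3 and 104 CPM in HT-29 and 78.8, 78.6 and 82.9 CPM in LAD2, so LAD2 held transcripts of both forms. COX7A1 read 15.3 CPM in LAD2 coculture and 0.101, 0.17 and 0.0544 CPM in HT-29 coculture, which over the group is 0.723% of its LAD2 level, beside the share of LAD2 RNA given above. COX7B2, a paralog of COX7B, had 0 counts in HT-29 and 0.72 CPM in LAD2. COX4I2 and COX6A2 had 0 counts in every library, where 3 counts are 0.0879 to 0.174 CPM. COX6B2 read 0.153 to 0.522 CPM in HT-29 grown alone and 1.15 to 2.29 CPM in LAD2 alone, and NDUFA4L2 read 0.211 against 1.69 CPM over the groups. The common forms NDUFA4 and COX7A2L had 129 and 102 CPM over HT-29 alone and 87.1 and 80.5 CPM over LAD2 alone. Of the 8 tested genes on that list, 4 were higher and 3 lower in LAD2 alone, against 47.5% and 44.9% of all genes. COX6B2 was called lower in LAD2 coculture, at 0.828 CPM (adjusted p = 0.0268, edgeR), where 6.75% of all genes were lower.

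Levels of different genes can be compared only per length, so CPM was divided by the length of the merged exons of each gene in kilobases. On this scale UQCRH was the highest gene of complex III in both lines, at 313 CPM per kilobase in HT-29 grown alone and 138 in LAD2 alone, and UQCR11 was the lowest at 5.60 and 5.72. SDHA led complex II with 124 and 58.8 CPM per kilobase, and SDHC was the lowest with 7.30 and 5.91. In complex I the highest gene was NDUFS5 in HT-29 (288 CPM per kilobase) and NDUFA12 in LAD2 (149). In complex IV it was COX8A in HT-29 (196) and COX5B in LAD2 (139.8). The order depends on the length used: with the principal transcript only, a length chosen after seeing the data, NDUFB9 led complex I in HT-29 at 602 CPM per kilobase and COX4I1 led complex IV in both lines at 259 and 228.

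The 5 complex I genes with the most exon overlap on the same strand had low levels. NDUFV2, a core iron-sulfur subunit, had 0.46, 0.498 and 0.464 CPM in HT-29 grown alone and 0.341, 0.193 and 0.177 CPM in LAD2 alone. NDUFA7 had 0.192 CPM in HT-29 grown alone and 0.234 CPM in LAD2 alone, NDUFA13 had 0.873 and 1.01 CPM, NDUFA11 had 4.76 and 7.88 CPM, and NDUFB8 had 5.97 and 6.09 CPM. In CPM, unscaled for length, the other 54 genes ran from 10.8 to 428 in HT-29 grown alone and from 8.50 to 293 in LAD2 alone, so that NDUFA11 in LAD2 was close to the lowest of them. Per kilobase of merged exons NDUFV2, NDUFA7 and NDUFA13 were the lowest 3 of the 59 in both lines, at 0.253, 0.319 and 0.506 in HT-29. NDUFB8, at 5.91, was not below the others on that scale, and NDUFA11 in LAD2, at 1.88, stood above NDUFA9 at 0.984. In GENCODE release 29 these 5 genes have at least 40% of their principal transcript inside same-strand exons of another gene, namely 82.9% for NDUFV2, 75.9% for NDUFA7, 71.7% for NDUFB8, 67.0% for NDUFA11 and 44.1% for NDUFA13. COX8A follows with 34.5% and COX6A1 with 30.6%. With either strand counted, overlap was 83.4% for NDUFB2, 45.8% for NDUFB11 and 44.5% for NDUFA1, none of it on the same strand. These had 88.4, 79.4 and 57.1 CPM in HT-29 grown alone, and the strand setting of the counting is not given. Counting programs often set aside reads that lie on 2 genes, and which counter was used is not given, so whether reads of these genes were left uncounted was not tested. Their values are uncertain, and NDUFA7 in both lines and NDUFV2 in LAD2 fell under the filter on low counts.

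**Figure D3:**
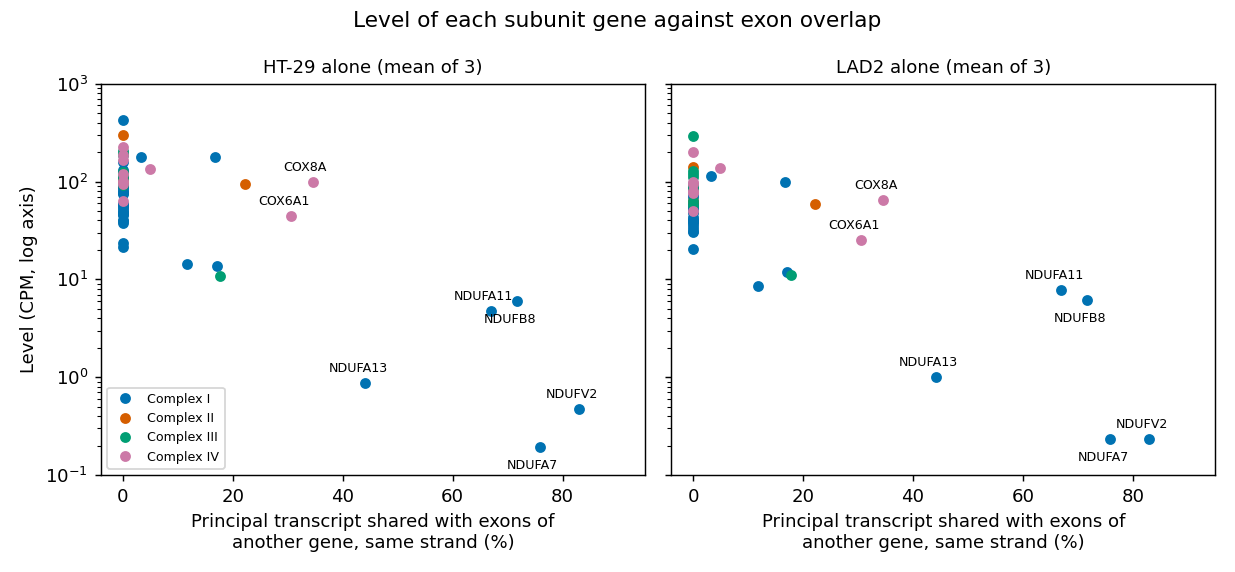
Level in CPM (log axis, mean of 3 libraries) of each subunit gene against the share of its principal transcript inside same-strand exons of another gene, in HT-29 grown alone and in LAD2 alone. The 5 genes with at least 40% overlap lie between 0.192 and 5.97 CPM in HT-29 alone, and the other 54 from 10.8 CPM upward, without scaling for length.

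The second comparison asked what coculture with LAD2 did in HT-29. The subunit genes hardly moved. Their sum was 5599 to 5711 CPM in HT-29 grown alone and 5633, 5614 and 5569 CPM in coculture, so the groups overlapped. Of 58 tested genes none was higher and 2 were lower, while 5.83% of 14070 genes were higher and 2.94% lower in the whole transcriptome. The median log2 change was -0.03 against 0.00 for all genes, and the biological coefficient of variation was 1.7%. At an unadjusted p under 0.05, 9 genes were lower and 0 higher. The share of all genes at that threshold was not counted, so no conclusion is drawn from this count. The 53 uncalled genes at 5 CPM or more in HT-29 alone had log2 changes from -0.13 to 0.10 with standard errors of at most 0.118.

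The 2 genes that fell belong to complex I. NDUFS5 had 152, 162 and 160.2 CPM alone and 151, 151 and 149 CPM in coculture (log2 change -0.09, SE 0.0249, adjusted p = 0.0146, edgeR). NDUFB3, an accessory subunit of the membrane arm, had 72.4, 76.5 and 74.6 CPM alone and 66.9, 69.6 and 74.8 CPM in coculture, where 1 library lay within the range of HT-29 alone (log2 change -0.11, SE 0.0353, adjusted p = 0.0474, edgeR). With the 1.04 to 1.19% of LAD2 RNA subtracted the log2 changes were -0.08 and -0.10, close to the values without subtraction, and neither gene was called (adjusted p = 0.0926 and 0.147, edgeR). DESeq2 called 0 of the 58. Without the second HT-29 alone library neither gene was called by edgeR (adjusted p = 0.221 for NDUFS5 and 0.308 for NDUFB3), and NDUFB3 was also lost without the third or without the first or second HT-29 coculture library (adjusted p = 0.0593, 0.386 and 0.125). Ranges that did not overlap were seen in 2 genes upward, against 15.6% of all genes, and in 7 downward, against 7.83%.

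Per complex, the sums in HT-29 coculture were 2626 ± 21.3, 599 ± 1.78, 1142 ± 12.2 and 1238.5 ± 1.1 CPM (SD, n = 3) for complexes I to IV. The means of coculture stood at 0.983, 1.00, 0.998 and 1.00 times those of HT-29 alone. The 4 genes of complex II had log2 changes between -0.05 and 0.00, those of complex III between -0.07 and 0.10, and those of complex IV between -0.06 and 0.03. The widest values were those of 2 of the overlapped genes of complex I. NDUFV2 read 1.05, 0.469 and 0.544 CPM in coculture (log2 change 0.58, adjusted p = 0.349, edgeR) and NDUFA13 read 0.676, 0.511 and 0.871 CPM (log2 change -0.41, adjusted p = 0.461, edgeR).

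The third comparison set the LAD2 coculture library against the 3 LAD2 alone libraries. Most subunit genes read slightly higher in coculture. The sum of the 59 genes was 4220 CPM in coculture against 3804, 3753 and 3956 CPM alone, 1.10 times the mean. Of 57 tested genes 15 were higher and 1 lower, against 14.1% higher and 6.75% lower of 15821 genes. The median log2 change was 0.14, with 51 genes above and 6 below 0, against 0.00 for all genes. The coculture library lay above all 3 alone libraries in 44 genes, against 37.8% of all genes, and below all 3 in 3 genes, against 30.6%. As coculture had 1 library, it was assumed to vary like LAD2 alone, where the biological coefficient of variation was 4.03%.

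This library held 5.26% of HT-29 RNA, and 14 of the 15 higher genes were lower in LAD2 alone than in HT-29 alone. When HT-29 alone values in that share were subtracted, 4 of the 15 genes were still called higher, COX5A, COX8A, NDUFC2 and NDUFS7, and NDUFA12 was still called lower. These 4 higher genes were 7.02% of the 57 tested and the 1 lower gene 1.75%. In that fit 5.92% of 15229 genes were higher and 4.47% lower, so the share of higher subunit genes was close to that of all genes. The observed level was also set against a computed mixture of 5.26% HT-29 alone and the rest LAD2 alone. Over the 56 genes at 5 CPM or more in LAD2 alone the median ratio of observed to mixture was 1.07, with a range of 0.827 to 1.26 and 49 genes above 1, against a median of 1.00 over 10460 genes. On the log2 scale the mixture stood a median of 0.04 and the library a median of 0.16 above LAD2 alone. The same library held less mitochondrially encoded RNA. The 13 mitochondrial genes summed to 47187, 47089 and 42053 CPM in LAD2 alone and to 34435 CPM in coculture, and the part of this difference in the subunit values was not tested.

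NDUFB9 had 50.8, 54.4 and 54.4 CPM alone and 79.6 CPM in coculture (log2 change 0.57, SE 0.0712, adjusted p = 1.68e-08, edgeR). The mixture gives 72.9 CPM, because HT-29 holds 428 CPM, and after subtraction the gene was not called (log2 change 0.18, adjusted p = 0.128). COX5A (chromosome 15, 74919791 to 74938168, minus strand) had 76.5, 78.4 and 81.5 CPM alone and 99.3 CPM in coculture (log2 change 0.32, SE 0.0683, adjusted p = 0.000288, edgeR). Here the mixture gives 84.5 CPM, and the gene was called after subtraction too (log2 change 0.26, adjusted p = 0.00873). COX5A and NDUFB9 were the genes that DESeq2 called higher.

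COX8A, a small membrane subunit of complex IV, had 69.3, 59.8 and 66.2 CPM alone and 78.8 CPM in coculture (log2 change 0.27, adjusted p = 0.00736 before, and 0.26, adjusted p = 0.0221 after subtraction, edgeR). UQCRH had 82.1, 82.5 and 86.3 CPM alone and 98.8 CPM in coculture (log2 change 0.23, adjusted p = 0.0112, edgeR), and after subtraction the log2 change was 0.17 (adjusted p = 0.129). NDUFS6, an accessory subunit with a zinc site, had 56.7, 53.9 and 58.5 CPM alone and 67.2 CPM in coculture (log2 change 0.24, adjusted p = 0.0130, edgeR), and after subtraction 0.20 (adjusted p = 0.0735). In each of these the coculture library lay above all 3 alone libraries. COX6A1 had 23.7, 25.2 and 26.7 CPM alone and 31.0 CPM in coculture (log2 change 0.29, adjusted p = 0.0179, edgeR), and after subtraction 0.26 (adjusted p = 0.0608), 1.18 times the mixture. The log2 changes of NDUFS6 and COX6A1 thus moved little although the calls were lost.

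NDUFS7 and NDUFC2, named after their values were seen, were also called after subtraction, but DESeq2 without subtraction called neither (adjusted p = 0.210 and 0.292). For NDUFS7 the mixture gives 54.7 CPM, beside a LAD2 alone mean of 55.6 CPM. It read 64.6 CPM in coculture against 57.6, 54.1 and 55.2 CPM alone (log2 change 0.21, adjusted p = 0.0390 before and 0.0209 after subtraction, edgeR). NDUFC2, an accessory subunit of the membrane arm, read 15.2 CPM against 12.2, 11.8 and 11.9 CPM (log2 change 0.34, adjusted p = 0.0296 before and 0.0375 after subtraction, edgeR). NDUFA12 (chromosome 12, 94897055 to 95003770, minus strand) was the 1 gene that fell, from 93.2, 92.3 and 99.6 CPM alone to 78.2 CPM (log2 change -0.29, SE 0.0714, adjusted p = 0.00178, edgeR), and its mixture value is 93.2 CPM. It also stands among the genes that were higher in LAD2 alone than in HT-29 alone.

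By complex, complex IV had the highest share of called genes, with 5 of 10 higher and all 10 above 0. Complex I had 8 of 34 higher and 1 lower, and complex III 2 of 9 higher. None of the 4 genes of complex II was called, with log2 changes from 0.05 for SDHC to 0.14 for SDHB. By role, 14 of 46 supernumerary genes and 1 of 11 core genes, NDUFS7, were higher. Of all genes 14.1% were higher. After subtraction of HT-29 RNA, 2 of 34 genes of complex I, 0 of 9 of complex III and 2 of 10 of complex IV were higher. By role it was then 3 of 46 supernumerary and 1 of 11 core genes, against 5.92% of all genes. The sums stood at 1.08, 1.08, 1.10 and 1.14 times LAD2 alone for complexes I to IV. Whether complexes or roles differ from each other was not tested.

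**Figure D4:**
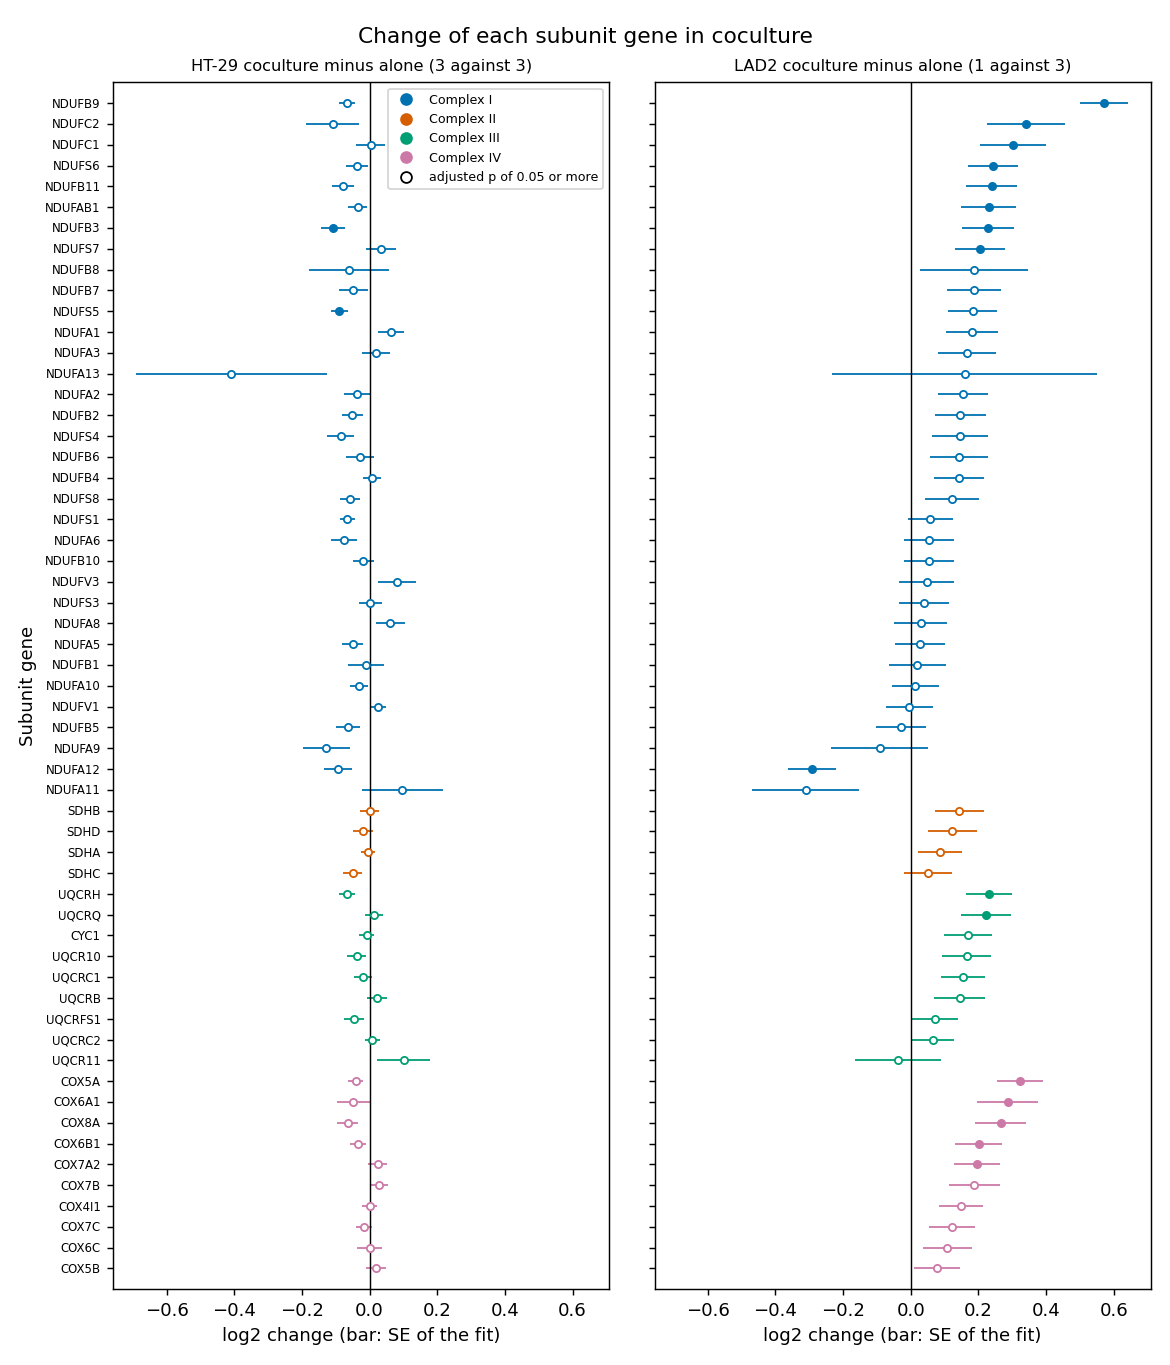
Log2 change in coculture of the 57 subunit genes tested in both lines, in HT-29 (left, 3 libraries against 3) and in LAD2 (right, 1 against 3). NDUFV2, tested in HT-29 only, is not drawn. Bars are standard errors of the fit and filled points passed the test. HT-29 points crowd around 0 with a median of -0.03, and LAD2 points lie mostly to the right with a median of 0.14.

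**Figure D5:**
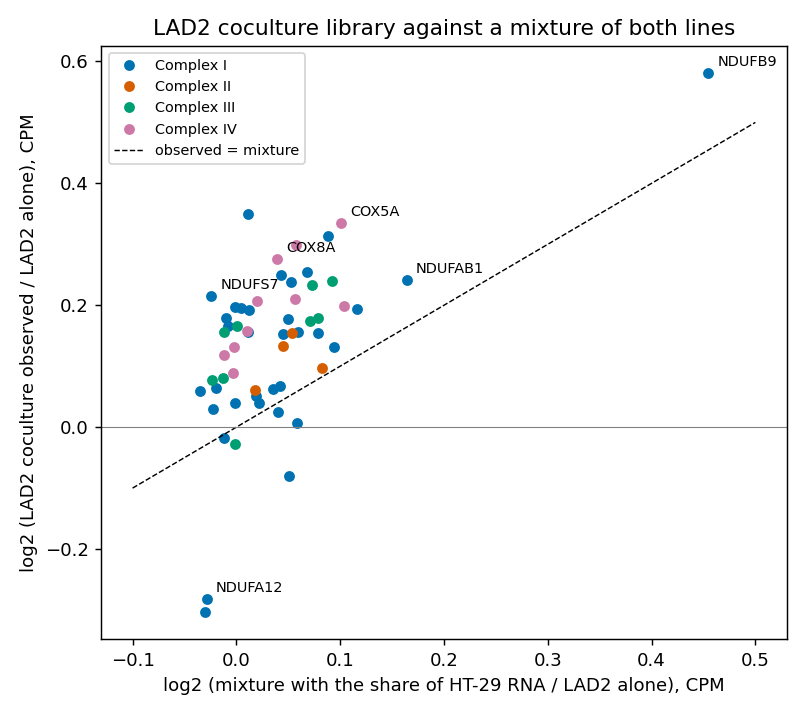
Log2 ratio of the LAD2 coculture library to LAD2 alone against the log2 ratio that a mixture with 5.26% HT-29 RNA gives, for 57 subunit genes in CPM; the dashed line marks equal values. NDUFB9 lies farthest to the right at 1.09 times its mixture value, COX5A, COX8A and NDUFS7 lie above it, and NDUFA12 lies below.

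Leaving out libraries moved the LAD2 count. It was 5 higher without the first or the second LAD2 alone library and 30 without the third, whose sum of the 59 genes was the highest and whose mitochondrial sum was the lowest of the 3. UQCRH and COX6A1 were no longer called without the first LAD2 alone library (adjusted p = 0.0648 and 0.107, edgeR), and COX8A and NDUFS6 without the second (0.0587 and 0.0641). DESeq2 called 2 genes higher and 1 lower.

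The fourth comparison took the response of LAD2 minus that of HT-29, in 1 fit over the 10 libraries. The responses of the lines share no libraries. Of 58 tested genes 47 had a higher response in LAD2 and 0 a lower one, against 33.7% higher and 7.11% lower of 17435 genes. The median difference was 0.32 on the log2 scale and that of all genes 0.17, so the subunit genes stood 0.15 above all genes. The shift of all genes depends on the scaling: it was 0.03 with RLE size factors, where 30 subunit genes were called higher, and -0.00 with library totals, where 22 were higher and 1 lower. The share of all genes called was counted only in the main fit, so the counts in other settings have no such share beside them. Relative to all genes the subunit median stayed between 0.13 and 0.18 in every setting run. Without a filter on low counts 2 genes were higher and 1 lower, and leaving out HT-29 alone library 1 or 3 or HT-29 coculture library 3 brought the count of higher genes to 9, 7 and 7. With the RNA of the other line subtracted, an alternative chosen after seeing the data, 26 genes were higher, at a median of 0.21 against 0.06 for all genes. This fit has 1 estimate of the spread for both lines, and HT-29, which varied less, gave 6 of the 10 libraries, so the p-values may be too small for LAD2.

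Per gene, NDUFB9 had the largest difference among those called, at 0.81 (SE 0.068, adjusted p = 3.18e-15, edgeR), followed by NDUFC2 at 0.62 and COX5A at 0.54 (adjusted p = 1.22e-10, edgeR). COX8A had 0.50, NDUFB11, an accessory subunit of the membrane arm, 0.49, UQCRH 0.47 and NDUFS5 0.44. These values were not set relative to the median of all genes, 0.17 in this fit. For NDUFB9 the mixture with HT-29 RNA gives 72.9 CPM, beside 79.6 CPM observed in LAD2 coculture. Across the 14 settings run, the difference ran from 0.30 to 0.84 in NDUFB9 and from 0.24 to 0.58 in COX5A, and both stayed called. It ran from 0.22 to 0.55 in COX8A and from 0.22 to 0.52 in NDUFB11, each not called in 1 setting, from 0.17 to 0.51 in UQCRH, not called in 2, and from 0.15 to 0.47 in NDUFS5, not called in 3. NDUFB11 had 79.9, 79.9 and 78.4 CPM in HT-29 grown alone and 76.8, 73.4 and 77.7 CPM in HT-29 coculture, and 52.0, 47.4 and 51.8 CPM in LAD2 alone and 59.9 CPM in LAD2 coculture. NDUFB11 read lower in every HT-29 coculture library and higher in the LAD2 one. NDUFA12, lower in both cocultures by value, had a difference of -0.03 (adjusted p = 0.833, edgeR).

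Other genes of the organelle were read from lists of related genes. In the lines alone, where 44.9% of all genes were lower and 47.5% higher in LAD2, most lists leaned the same way as the subunits. Of 18 nuclear genes of ATP synthase 14 were lower and 2 higher in LAD2, of 19 complex I assembly factors 17 were lower and 1 higher, and of 17 general mitochondrial genes (import, porins, chaperones and carriers) 16 were lower and 1 higher. HSPD1, the matrix chaperonin, had 2019, 2012 and 1953 CPM in HT-29 grown alone and 113, 113 and 126 CPM in LAD2 alone (log2 difference -4.10). ACAD9, an assembly factor of complex I, had a log2 difference of -1.62 and COA4, one of complex IV, -2.13. Of 23 complex IV assembly genes 13 were lower and 5 higher, of 6 for complex III 3 were lower and 2 higher, and of 4 for complex II 2 were lower and 1 higher. Of 14 genes of cytochrome c and ubiquinone synthesis 10 were lower and 4 higher, with CYCS, the somatic cytochrome c, at 414, 415 and 420.1 CPM against 119.7, 126 and 134 CPM. Of 17 genes of the citric acid cycle 11 were lower and 6 higher.

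The mitochondrially encoded genes went the other way. Of 13, 10 were higher and 1 lower in LAD2 alone, against 47.5% and 44.9% of all genes. Their median log2 difference was 0.65. Their sum was 26269 to 30813 CPM in HT-29 grown alone and 42053 to 47187 CPM in LAD2 alone. In LAD2 coculture 12 of the 13 were lower, against 6.75% of all genes. Their median log2 change was -0.42 where the nuclear subunits had 0.14, and in HT-29 coculture none was called. MT-ND5, a proton-pumping subunit of complex I, fell from 3693, 3738 and 3245 CPM to 2575 CPM (log2 change -0.48, adjusted p = 1.22e-06, edgeR). The nuclear subunits and the mitochondrial genes thus had medians of opposite sign in the lines alone and in LAD2 coculture.

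In LAD2 coculture, where 14.1% of all genes were higher, the related nuclear lists held 4 of 18 ATP synthase genes higher, 5 of 19 complex I assembly genes, 1 of 4 for complex II, 0 of 6 for complex III, 1 of 23 for complex IV, and 9 of 17 general mitochondrial genes, with none lower in these lists. HSPD1 rose from 113, 113 and 126 CPM to 244 CPM (log2 change 1.04, and 0.32 after subtraction, adjusted p = 0.000943, edgeR), where the mixture gives 216 CPM. Among 14 cytochrome c and ubiquinone genes 2 were higher and 1 lower, and in the citric acid cycle 1 of 17 was higher and 1 lower. After subtraction of HT-29 RNA, where 5.92% of all genes were higher, 1 of 18 ATP synthase genes, 2 of 19 complex I assembly genes and 3 of 17 general mitochondrial genes were higher, and none in the other 7 lists of related nuclear genes. In HT-29 coculture, where 2.94% of all genes were lower, 2 ATP synthase genes, 2 general mitochondrial genes and CYCS were lower, and none of these lists had a gene called higher. ATP5MC1, which encodes the rotor ring subunit of ATP synthase, had 112, 115 and 125 CPM in HT-29 grown alone and 109, 104 and 109 CPM in coculture (log2 change -0.14, adjusted p = 0.00165, edgeR), and its adjusted p after subtraction was 0.0168.

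Regulators of mitochondrial genes were mixed. Of 15 tested, 7 were lower and 5 higher in LAD2 alone, against 44.9% and 47.5% of all genes. TFAM, the packaging and transcription factor of mitochondrial DNA, had 142, 152 and 147 CPM in HT-29 grown alone and 44.8, 45.2 and 49.0 CPM in LAD2 alone (log2 difference -1.68), and ESRRA, a nuclear receptor of energy genes, had 114, 114 and 115 CPM against 53.8, 50.6 and 54.3 CPM (log2 difference -1.13). PPARGC1A, a coactivator of mitochondrial biogenesis, was low but higher in LAD2, with 0.307, 0.381 and 0.232 CPM against 2.05, 1.40 and 1.81 CPM. NRF1 did not pass the test, with 22.9, 23.5 and 25.8 CPM against 21.8, 23.4 and 21.2 CPM (log2 difference -0.13, adjusted p = 0.0582, edgeR), and GABPA was higher in LAD2 (log2 difference 0.28). In LAD2 coculture TFAM and PPRC1 were the 2 of 15 called, both higher, where 14.1% of all genes were higher. TFAM read 56.2 CPM (log2 change 0.27, adjusted p = 0.00819, edgeR), and after subtraction its adjusted p was 0.282. None of the 14 tested in HT-29 was called.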

How the data were processed

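RNA sequencing of total RNA from HT-29 and LAD2 cells, alone or in direct coculture, gave 12 columns in 1 table. The coculture time of 12 h was read from the label field named batch. The authors deposited raw counts per gene without normalization. The submitters' processing notes list build hg38, STAR 2.7.10a, FastQC 0.11.9 and DESeq2 3.24.0, and the counter, its annotation and its strand setting are not given there. All 58721 identifiers, 12826 of them with a stray digit left by a cut version suffix, matched GENCODE release 29 after the same characters were removed there. The 3 LAD2 coculture columns were identical and counted as 1 library. Counts were fitted per line with edgeR 4.0.16 under R 4.3.3 (TMM, filterByExpr with a minimum count of 10, two-sided quasi-likelihood F test, Benjamini-Hochberg adjustment, threshold 0.05). LAD2 alone was set against HT-29 alone in the same way, and the difference of responses was fitted as an interaction over 10 libraries. Fits were also run on simulated counts with a common spread, few changed genes and no RNA of the other line. That setting is simpler than these data and does not vouch for the calls here. Floors are 3 counts and, like the standard errors of counting, cover counting error only. No label says whether replicates are separate cultures. The p-values then measure only the spread between these samples, which may be technical.

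The members, the 13 related lists, the tests and the rule for named genes were chosen with earlier results of these data known. Named were all called members of a coculture comparison if at most 12, otherwise the 6 with the smallest p in each direction, the 8 largest differences between the lines in each direction, the extremes per length, complex II, isoform pairs, 5 regulators and up to 3 called genes per list. NDUFC2, NDUFS7 and further genes outside it were named after their values were seen. The share of RNA of the other line was estimated from genes above 50 CPM in one line and under 0.5 CPM in the other. Alternatives were RLE size factors, library totals, no filter on low counts, DESeq2 1.42.0, 1 fit over all libraries, subtraction of the other line, a replicate block and leaving out each library. SCO2, with 2 rows, was not used.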

Additional observations from a re-analysis of the deposited data

Results flagged for a closer look

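The responses of the 2 lines to coculture differed, by the test of the difference itself, in 47 of 58 tested subunit genes, all with the higher response in LAD2. In the same test 33.7% of all 17435 genes were higher and 7.11% lower, with a median of 0.17 on the log2 scale. The count of 47 fell to between 2 and 30 under other scalings, filters and DESeq2. Among the genes named in that comparison the difference was 0.81 in NDUFB9, 0.54 in COX5A, 0.50 in COX8A, 0.49 in NDUFB11, 0.47 in UQCRH and 0.44 in NDUFS5. Over the settings run the lowest values were 0.30 in NDUFB9, 0.24 in COX5A, 0.22 in COX8A, 0.22 in NDUFB11, 0.17 in UQCRH and 0.15 in NDUFS5, and the highest adjusted p was 0.00332, 0.0284, 0.0989, 0.160, 0.171 and 0.313 in the same order (edgeR or DESeq2). The LAD2 coculture library holds 5.26% HT-29 RNA and HT-29 coculture about 1.11% LAD2 RNA. With both subtracted 26 genes were higher, at a median of 0.21 on the log2 scale against 0.06 for all genes. Outside the main fit the share of all genes called was not counted for this difference. Groups of 3 libraries or fewer were not examined for single libraries that stand apart.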

How the results depend on the processing

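The median of the subunit genes relative to all genes kept its sign in each comparison and setting run. Between the lines it was -0.64, -0.69 without a filter on low counts, and -0.68 to -0.60 when each library was left out. For the difference of responses leaving out each library gave 0.13 to 0.18. The 2 genes lower in HT-29 coculture became 1 with library totals, 0 with DESeq2, 0 after subtraction of LAD2 RNA, 0 in 1 fit over all libraries, and 0 to 4 when each library was left out (4 without HT-29 alone library 1, 0 without library 2, 1 without HT-29 coculture library 1). The 15 genes higher in LAD2 coculture became 2 with DESeq2, 4 after subtraction, 50 in 1 fit over all libraries, where all genes shift by 0.18, and 5 to 30 without each library. The 1 lower gene became 0 in the fit over all libraries and 1 to 2 without each library. The 47 genes with a higher response in LAD2 became 30 with RLE size factors, 22 with library totals, 2 without a filter, 20 with DESeq2, 26 after subtraction, and 7 to 49 without each library, while 0 lower became 1 with library totals, 1 without a filter and 0 to 2 without each library. Shares of all genes called were counted only in the main fits and, for LAD2 coculture, after subtraction. The counts in the other settings have no such share beside them. Except where the construction shows it, the cause was not tested.

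Deviations of same-numbered libraries from their group means had correlations of -0.021 to 0.0136. With 3 libraries per group such values cannot settle whether the numbers pair the libraries. With a replicate block 4 subunit genes were lower in HT-29 coculture, and between the lines 12 were higher and 37 lower. The biological coefficient of variation was 1.38% with the block and 1.70% without it in HT-29. Between the lines it was 3.21% and 3.16%. No block was possible for LAD2 coculture, which has 1 library. NDUFV2, NDUFA7 and NDUFA13 stayed near 1 CPM or under it, and whether depth or uncounted reads limit them was not tested.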
